A study of Mus musculus with 12 samples.

Results

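Chemokine and chemoattractant receptors were followed in RNA-seq of thioglycollate-elicited peritoneal exudate cells (PECs), macrophage-rich cells that an irritant draws into the abdominal cavity. The 9 genes were fixed by name: *Ccr1*, *Ccr2*, *Ccr7*, *Ccrl2*, *Cx3cr1*, *Cxcr4*, *Fpr1*, *Fpr2* and *Ackr3*. A row with the gene's symbol was found for 8 of the 9, out of 12850 listed genes, and *Ackr3* was not analysed here. All 8 passed the filter on low values (at least 1 CPM in at least 2 libraries, where CPM scales the reads of a gene to the size of its library), which kept 11885 genes. No measured value entered this rule, but the list was made with earlier results of these data known.

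The PECs came from WT and *Zc3h12a* S513A/S513A (S513A) knock-in C57BL/6 mice and were collected 3.5 days after thioglycollate. The knock-in was made by CRISPR-Cas9 editing of fertilized eggs and replaces a serine of the RNase Regnase-1 in every cell of the animal, and the age and sex of the mice and the number of founders are not given in the sources used here. Cells of both genotypes were left unstimulated (0 hr) or were given 100 ng/ml of LPS and collected after 4 or 8 hr. LPS is the endotoxin of Gram-negative bacteria. No library of unstimulated cells at 4 or 8 hr is in the series, so LPS and time in culture cannot be told apart. Each of the 6 groups had 2 libraries, 12 in all, and nothing in the labels says whether the 2 came from separate mice, so that the p values measure the spread between libraries, which may be technical.

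These receptors sit in the plasma membrane and, except for the atypical ones, pass the signal of a chemoattractant to heterotrimeric G proteins of the Gi class, which set off actin remodeling and directed movement. Chemokine receptors bind small secreted chemokines, whereas the formyl peptide receptors bind N-formylated peptides from bacteria and mitochondria. Ccrl2 is an atypical receptor that binds chemerin without being known to drive migration. In macrophages and monocytes the set of receptors at the surface decides which gradients the cell can follow, and it is known to be remodeled when the cell meets LPS.

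*Zc3h12a*, which carries the edited codon, was transcribed in every library, at a log2 CPM of 4.99 to 8.11, and its difference between genotypes did not pass the test at any time (adjusted p = 0.586, 0.761 and 0.429 at 0, 4 and 8 hr). A missense codon is not visible in these gene-level values. The libraries held 9525979 to 12439960 reads on listed genes. Macrophage markers (8 of 8 with a row) summed to 16754 to 27848 CPM in all libraries, and *Lyz2* made up most of the sum. By the test described below, 2 of the 8 rose and 2 fell at 4 hr, and 4 rose and 2 fell at 8 hr. For the T cell and NK cell lists no gene had a row. B cell markers summed to at most 8.87 CPM, dendritic cell markers to at most 6.58, mast cell markers to at most 2.91 and mesothelial markers to at most 2.26. Neutrophil markers (5 of 10 with a row, and no row for *S100a9*, *Ly6g* or *Retnlg*) summed to 779 to 983 CPM over all libraries. Eosinophil markers (2 of 5 with a row) summed to 15.8 to 18.7 CPM at 0 hr, 8.25 to 10.0 at 4 hr and 3.19 to 4.58 at 8 hr, and their part in the results below was not tested.

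The bases upstream of 3 receptor genes are shown because the results on them differ in direction: *Ccrl2*, which rose, and *Ccr1*, which fell, both hold a κB match, the motif of the NF-κB factors that LPS activates, and *Cxcr4* is the receptor with the deepest fall. Each run is the 250 bases before the RefSeq start site, read on the gene's strand in GRCm38.p6, with matches to the searched motifs in capitals. The *Ccrl2* window (first of 3 start sites) is chr9:111057519-111057768, minus strand, the *Ccr1* window is chr9:123968693-123968942, minus strand, and the *Cxcr4* window is chr1:128592300-128592549, minus strand.
Ccrl2: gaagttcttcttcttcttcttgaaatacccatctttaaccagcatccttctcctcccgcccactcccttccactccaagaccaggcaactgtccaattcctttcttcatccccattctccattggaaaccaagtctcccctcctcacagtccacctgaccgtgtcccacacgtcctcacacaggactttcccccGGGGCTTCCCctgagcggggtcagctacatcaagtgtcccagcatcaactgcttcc
Ccr1: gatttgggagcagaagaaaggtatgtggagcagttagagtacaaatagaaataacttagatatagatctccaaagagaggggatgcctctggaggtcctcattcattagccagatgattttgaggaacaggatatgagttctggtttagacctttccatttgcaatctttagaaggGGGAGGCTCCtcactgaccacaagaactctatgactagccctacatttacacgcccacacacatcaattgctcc
Cxcr4: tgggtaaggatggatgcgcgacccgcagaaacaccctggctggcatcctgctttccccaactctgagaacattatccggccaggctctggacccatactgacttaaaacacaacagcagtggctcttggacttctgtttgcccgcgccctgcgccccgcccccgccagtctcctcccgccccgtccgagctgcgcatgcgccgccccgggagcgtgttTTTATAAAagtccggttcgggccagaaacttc

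In *Ccrl2* the capitals are a κB match that begins 56 bases before the start site and reads as κB on both strands. The windows of *Ccrl2* start sites 2 and 3 held no match to any searched motif. In *Ccr1* they are a κB match that begins 74 bases before the start. In *Cxcr4* they are a pair of overlapping TATA box matches, on opposite strands, within the last 32 bases. The motifs searched on both strands were κB, AP-1 (TGANTCA), the core of the interferon-stimulated response element (GAAANNGAA), PU.1 (GAGGAAG) and the TATA box (TATAAA). Of 27025 RefSeq promoters, 7.01% held κB, 6.87% AP-1, 7.16% the interferon core, 10.39% PU.1 and 12.97% a TATA box. Among the 7 receptor genes with a RefSeq start site, 2 held κB, none held AP-1 or PU.1, *Ccr2* held the interferon core, and *Cxcr4*, *Fpr1* and *Fpr2* held TATAAA, in *Fpr1* and *Fpr2* at 227 and 130 bases before the start. A κB match thus stood both before a receptor that rose and before one that fell, and these letters say nothing of binding.

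The transcripts of all 8 receptors had changed after 4 hr of LPS, 5 higher and 3 lower than at 0 hr. All 8 remained on the same side at 8 hr. The formyl peptide receptor genes *Fpr1* and *Fpr2*, the atypical receptor gene *Ccrl2*, and at low levels *Ccr7* and *Cx3cr1* rose, whereas *Cxcr4*, *Ccr1* and *Ccr2* fell. The test was limma on all 12 libraries, averaged over the genotypes, with Benjamini-Hochberg adjustment over 11885 genes. By the same test 55.8% of all genes changed at 4 hr, 29.1% higher and 26.7% lower, and 46.1% at 8 hr, 24.5% higher and 21.6% lower. The median log2 fold change of the 8 receptors was 1.39 at 4 hr and 2.28 at 8 hr, beside 0.02 and 0.00 over all genes. The 4 libraries at 4 hr did not overlap with the 4 at 0 hr for 7 of the 8 receptors, all but *Cx3cr1*, which holds for 49.1% of all genes, and at 8 hr for all 8, beside 43.7% of all genes. In bulk RNA, fewer cells of a type and less RNA per cell cannot be told apart.

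**Figure D1:**
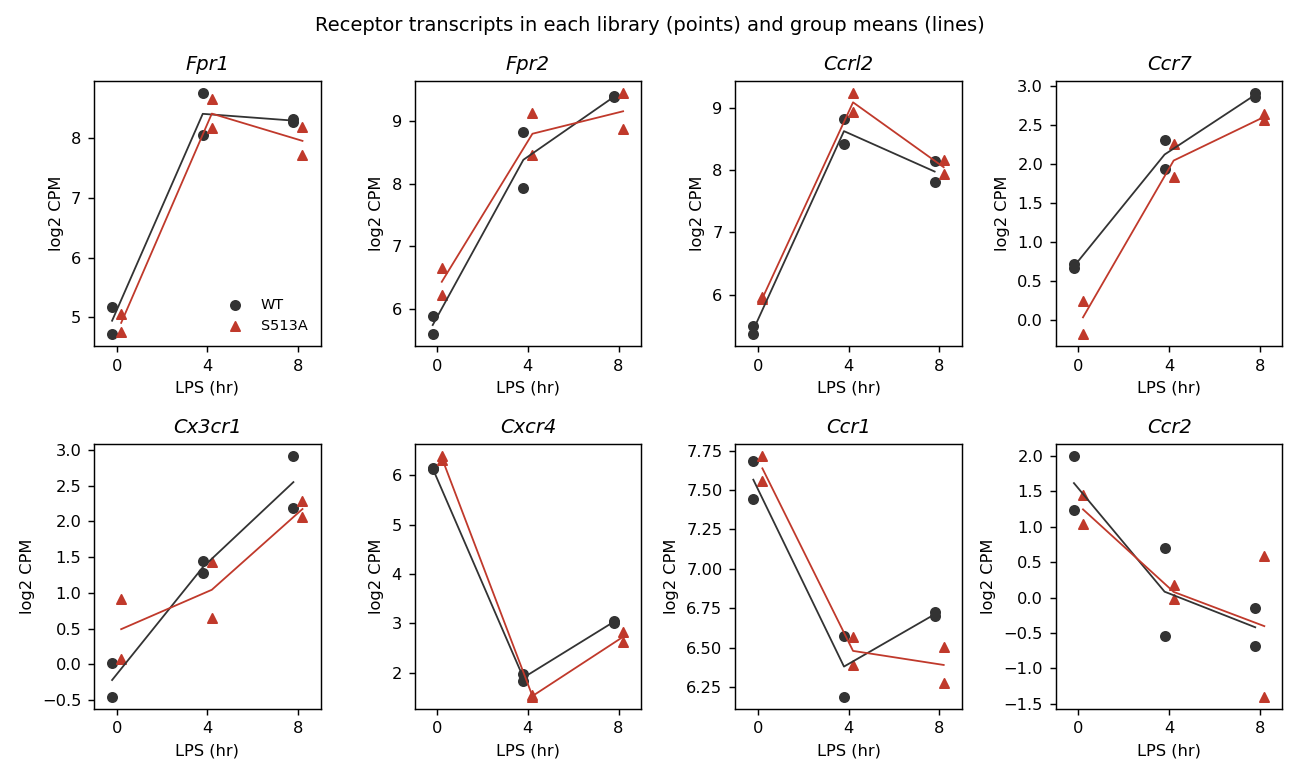
log2 CPM (vertical axes, a separate scale for each gene) against hours of LPS (0, 4 and 8) for the 8 receptor genes, with a black circle for each WT library, a red triangle for each S513A library and lines through the means of 2 libraries, drawn slightly apart on the time axis. *Fpr1*, *Fpr2*, *Ccrl2*, *Ccr7* and *Cx3cr1* lie higher and *Cxcr4*, *Ccr1* and *Ccr2* lower at 4 and 8 hr than at 0 hr, with no overlap of the 0 and 8 hr libraries for any gene.

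*Fpr1* encodes the high-affinity receptor for N-formylated peptides and lies on chromosome 17 (17876471 to 17883940, GRCm38, minus strand). At 0 hr its log2 CPM was 5.17 and 4.72 in the WT libraries and 4.75 and 5.06 in the S513A libraries. After 4 hr of LPS the values were 8.76 and 8.06 in WT and 8.17 and 8.66 in S513A. After 8 hr they were 8.27 and 8.33 in WT and 7.73 and 8.19 in S513A. Every stimulated library was above every unstimulated one, and the 4 and 8 hr libraries overlapped. *Fpr1* rose 11.2-fold at 4 hr (log2 fold change 3.49 ± 0.18 SE, adjusted p = 4.84e-08) and was 9.21-fold above 0 hr at 8 hr (3.20 ± 0.18, adjusted p = 1.25e-07). Between 4 and 8 hr the log2 difference of -0.29 did not pass the test (95% confidence interval -0.69 to 0.12, adjusted p = 0.289). *Fpr1* ranked 196 of 11885 genes from the top by its log2 fold change at 4 hr and 190 at 8 hr. Neutrophils also carry this receptor, and the neutrophil markers summed to 779 to 880 CPM at 0 hr, 782 to 925 at 4 hr and 854 to 983 at 8 hr. Of the 5 tested neutrophil markers 3 rose and 1 fell at 4 hr and 4 rose and 1 fell at 8 hr, with medians of 0.73 and 0.86. The abundant *Mmp8* fell (-0.45 at 4 hr), *Mmp9* rose (1.85), and the part of these cells in the result was not tested.

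*Fpr2* encodes a broader receptor of the same family, which also binds ligands such as annexin A1 and serum amyloid A. It lies on the opposite strand of chromosome 17 (17887824 to 17893952), with 3883 bases between its start and that of *Fpr1*. Its log2 CPM at 0 hr was 5.88 and 5.60 in WT and 6.22 and 6.65 in S513A. Stimulation for 4 hr gave 8.83 and 7.93 in WT and 8.46 and 9.14 in S513A, and stimulation for 8 hr gave 9.39 and 9.40 in WT and 8.87 and 9.45 in S513A. The 4 hr libraries were widely spread, with 2661 to 5173 reads, and overlapped with those at 8 hr. *Fpr2* rose 5.68-fold at 4 hr (log2 fold change 2.51 ± 0.22 SE, adjusted p = 3.00e-06) and 9.12-fold at 8 hr (3.19 ± 0.22, adjusted p = 5.49e-07). The further rise of 0.68 from 4 to 8 hr had an adjusted p of 0.0421 and is a borderline call: it was lost in 9 of the 12 fits that left out 1 library, at adjusted p values of 0.0552 to 0.135, and the log2 difference without replicate 2 of WT at 4 hr was 0.46. Of the 50-base stretches of the longest *Fpr2* transcript, 37.2% also occur in transcripts of *Gm5966*, *Fpr3* or *Fpr1*, and the annotation gives *Fpr2* and *Fpr3* 48 exon bases in common, so reads could be split or lost among these copies and the level of *Fpr2* is uncertain. *Fpr1* shares 1 such stretch of 1275.

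*Ccrl2* encodes the atypical chemerin-binding receptor and lies on chromosome 9 (111054486 to 111057519, minus strand). At 0 hr its log2 CPM was 5.37 and 5.50 in WT and 5.95 and 5.93 in S513A. The 4 hr values were 8.83 and 8.43 in WT and 8.94 and 9.24 in S513A, and at 8 hr 7.82 and 8.14 in WT and 7.94 and 8.16 in S513A. The 3 times did not overlap, and the 4 hr libraries were the highest. *Ccrl2* rose 9.03-fold at 4 hr (log2 fold change 3.17 ± 0.12 SE, adjusted p = 3.46e-09), remained 5.02-fold above 0 hr at 8 hr (2.33 ± 0.12, adjusted p = 5.16e-08), and fell by 0.85 on the log2 scale between 4 and 8 hr (adjusted p = 0.000505). It was the only one of the 8 receptors called lower in that interval. None of its 50-base stretches occurs in another gene.

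*Ccr7* encodes the receptor for the lymph node chemokines Ccl19 and Ccl21 and is a known marker of maturing dendritic cells and inflammatory macrophages (chromosome 11, 99144196 to 99155077, minus strand). It was measured at a low level, with 10 to 78 reads per library. At 0 hr its log2 CPM was 0.71 and 0.66 in WT and 0.24 and -0.18 in S513A. By 4 hr it was 1.94 and 2.30 in WT and 2.25 and 1.83 in S513A, and at 8 hr 2.86 and 2.90 in WT and 2.56 and 2.64 in S513A. The 3 times did not overlap. *Ccr7* rose 3.30-fold at 4 hr (log2 fold change 1.72 ± 0.17 SE, adjusted p = 7.53e-06) and 5.22-fold at 8 hr (2.38 ± 0.17, adjusted p = 7.04e-07). From 4 to 8 hr it rose by 0.66 (adjusted p = 0.0153), a call that was lost without replicate 2 of WT at 8 hr (adjusted p = 0.0539) or replicate 2 of S513A at 4 hr (adjusted p = 0.0578). Dendritic cell markers (5 of 6 with a row) summed to 4.43 to 6.58 CPM at 0 hr, 3.08 to 4.83 at 4 hr and 3.01 to 5.17 at 8 hr. Of the 3 that were tested, *Flt3* (1.48) and *Zbtb46* (1.08) rose at 4 hr and *Clec9a* fell (-2.29), and 1 rose and 1 fell at 8 hr, with medians of 1.08 and 0.96. Their part in the rise of *Ccr7* was not tested.

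*Cx3cr1* encodes the receptor for fractalkine (Cx3cl1), a membrane-bound chemokine, and is known from patrolling monocytes and many tissue macrophages (chromosome 9, 119901616 to 120069879, minus strand). It had 9 to 79 reads per library. Its log2 CPM at 0 hr was 0.01 and -0.45 in WT and 0.92 and 0.07 in S513A. At 4 hr it was 1.27 and 1.44 in WT and 1.44 and 0.65 in S513A, and at 8 hr 2.92 and 2.18 in WT and 2.28 and 2.06 in S513A. One S513A library at 4 hr lay below one at 0 hr, and all 8 hr libraries lay above the others. *Cx3cr1* rose 2.09-fold at 4 hr (log2 fold change 1.06 ± 0.27 SE, adjusted p = 0.00639) and 4.67-fold at 8 hr (2.22 ± 0.27, adjusted p = 5.69e-05). The rise of 1.16 from 4 to 8 hr (adjusted p = 0.0102) was lost without replicate 1 of WT at 8 hr (adjusted p = 0.0526). Monocyte markers (4 of 4 with a row, led by *Ly6c2*) summed to 22.0 to 36.3 CPM at 0 hr, 36.6 to 87.6 at 4 hr and 58.0 to 104 at 8 hr, 2 of the 4 rose at 4 hr and 3 rose and 1 fell at 8 hr, and their part in the result was not tested. The exons of *Cx3cr1* share 78 bases with those of the antisense gene *Gm33858*, and reads mapped without strand cannot be told apart there.

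*Cxcr4* encodes the receptor for Cxcl12, which holds leukocytes in bone marrow and tissues (chromosome 1, 128588199 to 128592293, minus strand). At 0 hr its log2 CPM was 6.16 and 6.13 in WT and 6.32 and 6.40 in S513A. It dropped to 1.97 and 1.82 in WT and 1.54 and 1.51 in S513A at 4 hr, and was 3.05 and 3.01 in WT and 2.62 and 2.83 in S513A at 8 hr. The 3 times were far apart: 908 to 1023 reads per library at 0 hr became 24 to 44 at 4 hr and 65 to 87 at 8 hr. *Cxcr4* fell 23.3-fold at 4 hr (log2 fold change -4.54 ± 0.09 SE, adjusted p = 5.59e-11) and was 10.4-fold below 0 hr at 8 hr (-3.37 ± 0.09, adjusted p = 6.20e-10). By its log2 fold change it ranked 7 from the bottom of 11885 genes at 4 hr and 32 at 8 hr. From 4 to 8 hr *Cxcr4* rose 2.25-fold (log2 fold change 1.17 ± 0.09, adjusted p = 1.73e-05), regaining a small part of its fall.

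*Ccr1* encodes a receptor for inflammatory chemokines such as Ccl3 and Ccl5 (chromosome 9, 123962124 to 123968692, minus strand). At 0 hr its log2 CPM was 7.69 and 7.44 in WT and 7.56 and 7.72 in S513A. At 4 hr it was 6.57 and 6.19 in WT and 6.39 and 6.57 in S513A, and at 8 hr 6.70 and 6.72 in WT and 6.28 and 6.50 in S513A. All 8 stimulated libraries lay below the 4 unstimulated ones, and the 4 and 8 hr libraries overlapped. *Ccr1* fell 2.25-fold at 4 hr (log2 fold change -1.17 ± 0.11 SE, adjusted p = 3.87e-06) and was 2.07-fold below 0 hr at 8 hr (-1.05 ± 0.11, adjusted p = 1.26e-05). The difference of 0.12 between 4 and 8 hr did not pass the test (95% confidence interval -0.11 to 0.35, adjusted p = 0.444).

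*Ccr2* encodes the receptor for Ccl2, with which classical monocytes leave the bone marrow (chromosome 9, 124101950 to 124113557, plus strand). It was the scarcest of the 8, with 3 to 57 reads per library and at least 1 CPM in 7 of 12 libraries. Its log2 CPM at 0 hr was 2.00 and 1.23 in WT and 1.04 and 1.45 in S513A. At 4 hr it was 0.70 and -0.54 in WT and 0.18 and -0.02 in S513A, and at 8 hr -0.15 and -0.69 in WT and 0.59 and -1.40 in S513A. All stimulated libraries lay below the unstimulated ones, but the S513A pair at 8 hr, with 17 and 3 reads, differed by 1.99 on the log2 scale. *Ccr2* fell 2.55-fold at 4 hr (log2 fold change -1.35 ± 0.44 SE, adjusted p = 0.0233) and was 3.59-fold below 0 hr at 8 hr (-1.84 ± 0.44, adjusted p = 0.00574). The 4 hr call was lost without replicate 1 of WT at 0 hr (adjusted p = 0.0876), replicate 2 of WT at 4 hr (0.0795), replicate 2 of S513A at 0 hr (0.0744) or replicate 2 of S513A at 4 hr (0.0582). The monocyte markers, led by *Ly6c2*, summed to 22.0 to 36.3 CPM at 0 hr and 58.0 to 104 at 8 hr. Of these markers 3 rose and 1 fell at 8 hr, and their part in the values of *Ccr2* was not tested. Of 5679 stretches of 50 bases in *Ccr2*, 129 (2.27%) occur in other genes, 110 of them in a single gene. Another gene that shares some, *Unc45a*, had 169 to 390 reads per library. The part of such reads in the values of *Ccr2* was not tested.

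**Figure D2:**
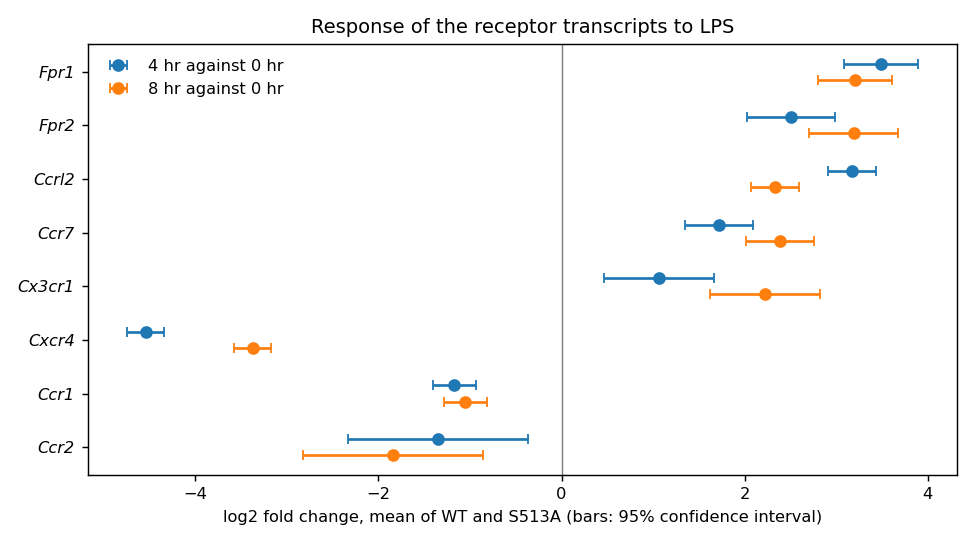
log2 fold change of the 8 receptor genes at 4 hr (blue) and 8 hr (orange) of LPS against 0 hr, as the mean of the WT and S513A contrasts, with the 95% confidence interval of the limma fit as bars. *Cxcr4* reaches -4.54 at 4 hr and -3.37 at 8 hr, *Fpr1* 3.49 and 3.20, and the widest intervals are those of *Ccr2*, from -2.33 to -0.37 at 4 hr.

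The interval from 4 to 8 hr set the receptors apart from each other. *Ccr7*, *Cx3cr1*, *Cxcr4* and *Fpr2* rose, *Ccrl2* fell, and *Ccr1*, *Ccr2* and *Fpr1* did not pass the test, so that 5 of 8 changed beside 25.6% of all genes, 12.8% in each direction. The libraries of both times were apart for 4 receptors, *Ccr7*, *Ccrl2*, *Cx3cr1* and *Cxcr4*, and for 23.6% of all genes. *Fpr2*, *Ccr7* and *Cx3cr1* were higher at 4 hr and higher again at 8 hr, which 221 genes (1.86%) shared. *Ccrl2* had a peak at 4 hr and a level above 0 hr at 8 hr, like 655 genes (5.51%). The fall and partial return of *Cxcr4* was seen in 525 genes (4.42%). *Ccr1* and *Ccr2* belonged to 1392 genes (11.7%) that fell by 4 hr, stayed below 0 hr and had no call between 4 and 8 hr, and *Fpr1* to 1578 genes (13.3%) with the same course upward. These 3 contrasts share libraries, and the groups describe calls only.

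To compare receptors with each other, CPM was divided by the length of the longest annotated transcript in kb. On this log2 CPM per kb scale, *Ccr1* led at 0 hr with a mean of 6.10 ± 0.13 (SD over 4 libraries), followed by *Fpr2* (5.91), *Cxcr4* (5.40), *Fpr1* (4.52), *Ccrl2* (4.39), *Ccr7* (-0.63), *Ccr2* (-1.09) and *Cx3cr1* (-2.03). Neighbors in this order overlapped in their libraries, except between *Cxcr4* and *Fpr1* and between *Ccrl2* and *Ccr7*. At 4 hr the order had become *Fpr2* (8.41), *Fpr1* (8.01), *Ccrl2* (7.56), *Ccr1* (4.93), *Ccr7* (1.09), *Cxcr4* (0.86), *Cx3cr1* (-0.97) and *Ccr2* (-2.44). *Fpr2* and *Fpr1*, *Fpr1* and *Ccrl2*, and *Ccr7* and *Cxcr4* overlapped, and the other neighbors were apart. At 8 hr *Fpr2* led alone (9.09), above *Fpr1* (7.72), *Ccrl2* (6.72), *Ccr1* (5.05), *Cxcr4* (2.03), *Ccr7* (1.76), *Cx3cr1* (0.19) and *Ccr2* (-2.93), and *Cxcr4* and *Ccr7* were the only neighbors that overlapped. At 4 hr *Fpr2*, *Fpr1* and *Ccrl2* thus stood above *Ccr1*, and *Cxcr4* went from the third place to the sixth. The order at 0 hr depends on the length used: per kb of the shortest transcript *Ccrl2* (6.50), *Cxcr4* (6.40) and *Fpr2* (6.27) already had higher means than *Ccr1* (6.10) at 0 hr, and on that scale only *Fpr1* had a mean below that of *Ccr1* at 0 hr and above it at 4 hr.

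**Figure D3:**
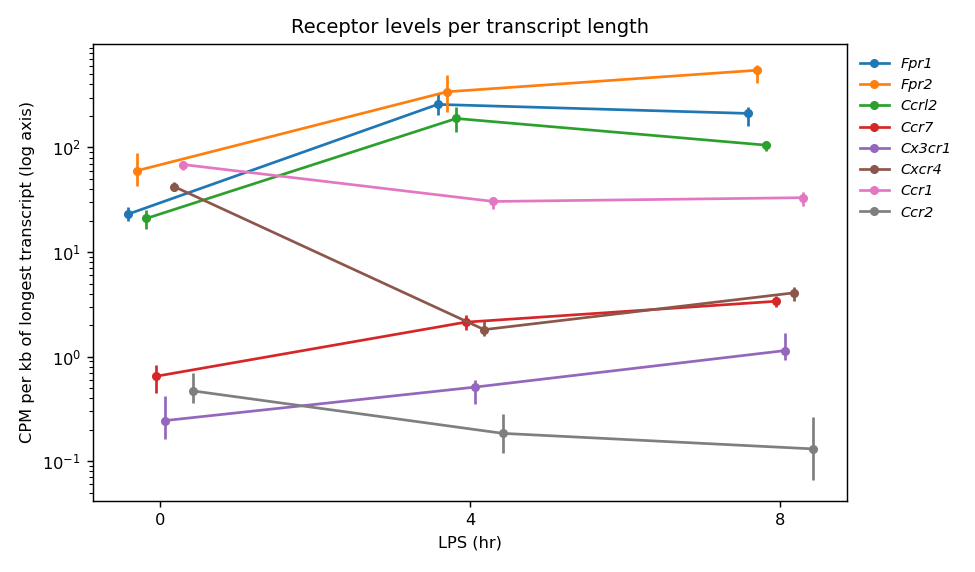
CPM per kb of the longest transcript (log axis) against hours of LPS, with the mean of the log2 values of 4 libraries as points, offset in time by gene, and the range of the libraries as vertical lines. *Fpr2*, *Fpr1* and *Ccrl2* are the 3 highest at 4 and 8 hr, and *Cxcr4* drops from the upper to the lower group.

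Within each genotype, with 2 libraries against 2, 7 receptors changed in WT at 4 hr (41.3% of all genes) and 6 in S513A (43.2%). At 8 hr 8 changed in WT (34.3% of all genes) and 7 in S513A (39.9%). All 8 had the same direction in both genotypes at both times. *Ccr2* was the receptor without a call in WT at 4 hr (log2 fold change -1.53, adjusted p = 0.0734) and in S513A at 8 hr (-1.65, adjusted p = 0.0576). In S513A at 4 hr neither *Ccr2* (-1.17, adjusted p = 0.161) nor *Cx3cr1* (0.55, adjusted p = 0.280) passed the test. The call of *Ccr2* in WT at 8 hr (-2.04, adjusted p = 0.0280) was lost without any 1 of the 4 libraries compared, at adjusted p values of 0.175 and 0.0521 without replicate 1 or 2 at 0 hr and 0.0646 and 0.157 without replicate 1 or 2 at 8 hr. That of *Cx3cr1* was lost in WT at 4 hr without replicate 2 at 0 hr (adjusted p = 0.0591) and in S513A at 8 hr without replicate 2 at 0 hr (adjusted p = 0.0585). *Cxcr4* fell 19.0-fold in WT and 28.6-fold in S513A at 4 hr, and *Ccrl2* rose 9.17-fold and 8.89-fold.

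Whether the S513A form of Regnase-1, an RNase that degrades inflammatory mRNAs, changes these levels was asked by comparing the genotypes at each time. No receptor passed the limma test after adjustment at 0, 4 or 8 hr or over all times, where 0.0337%, 0.0168%, 0.0337% and 0.0673% of all genes did. Without adjustment, p was under 0.05 for 3, 2, 1 and 2 receptors, and for 949, 833, 1487 and 798 of 11885 genes. The libraries of the genotypes did not overlap for 5 receptors at 0 hr, 2 at 4 hr and 4 at 8 hr, beside 57.5%, 28.2% and 53.6% of all genes, so that these counts are near the background.

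*Ccrl2* was the receptor with the smallest p over all times. It was higher in S513A by 0.51 on the log2 scale at 0 hr (95% confidence interval 0.14 to 0.87, adjusted p = 0.586), with both S513A libraries above both WT libraries, and by 0.46 at 4 hr (0.10 to 0.83, adjusted p = 0.622). At 8 hr the difference was 0.07 (-0.30 to 0.44, adjusted p = 0.848), and over all times 0.35 (0.13 to 0.56, adjusted p = 0.443) by limma. *Fpr2* differed by 0.69 at 0 hr (0.01 to 1.38, adjusted p = 0.586) and -0.23 at 8 hr. A limma fit of the 4 libraries at 0 hr alone called *Ccrl2* (adjusted p = 0.0403) and *Fpr2* (adjusted p = 0.0447), and with them 693 genes (5.83%), so these 2 calls depend on which libraries set the spread.

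*Ccr7* was lower in S513A by 0.65 on the log2 scale at 0 hr (log2 difference -0.65, 95% confidence interval -1.18 to -0.13, adjusted p = 0.586), where it had 10 to 23 reads per library. *Ccr1*, *Fpr1* and *Cx3cr1* had confidence intervals that included 0 at every time. For *Ccr2* the interval at 4 hr ran from -1.39 to 1.38, so that a difference of 2-fold either way lay within it.

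The response of *Cxcr4* to LPS was the one with the smallest interaction p. Its S513A libraries lay above the WT libraries at 0 hr (log2 difference 0.22) and below them at 4 hr (-0.37) and 8 hr (-0.31). The interaction, the response in S513A minus the response in WT, was -0.59 at 4 hr (95% confidence interval -0.997 to -0.189, adjusted p = 1.00) and -0.53 at 8 hr (-0.93 to -0.12, adjusted p = 0.197) by limma. No receptor and 0% of all genes passed the interaction test at either time, with an unadjusted p under 0.05 for 144 genes at 4 hr and 2405 at 8 hr. The interaction at 8 hr was -1.09 for *Cx3cr1* (-2.29 to 0.12) and -0.92 for *Fpr2* (-1.89 to 0.05), and the widest interval was that of *Ccr2* (0.39, -1.57 to 2.35).

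**Figure D4:**
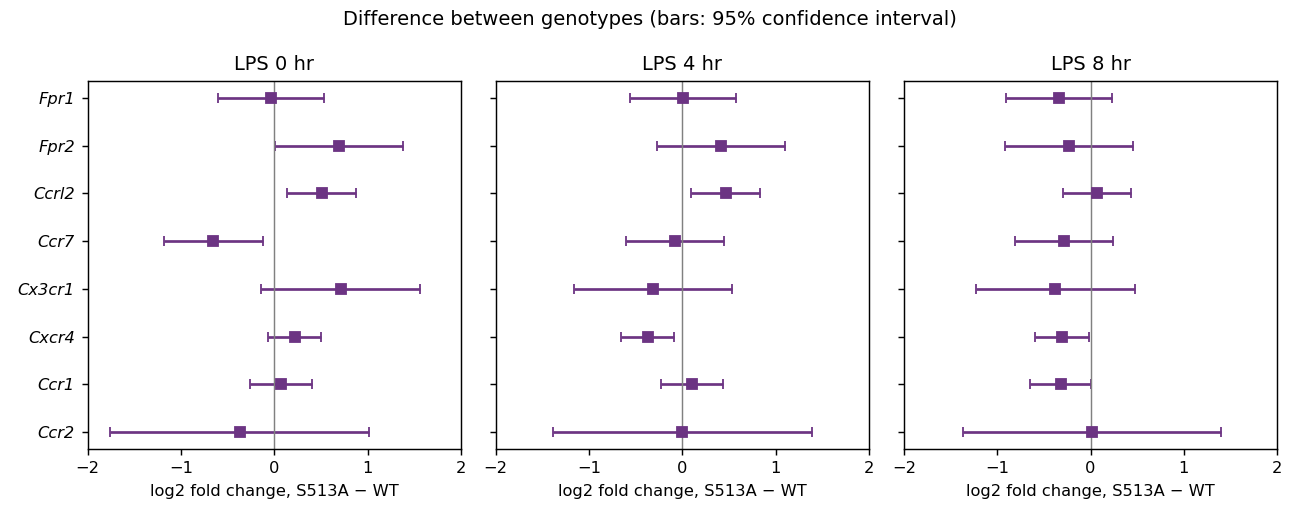
log2 fold change of S513A against WT for the 8 receptor genes at 0, 4 and 8 hr of LPS (panels), with the 95% confidence interval of the limma fit as bars. *Ccrl2* (0.51) and *Fpr2* (0.69) lie above 0 and *Ccr7* (-0.65) below 0 at 0 hr, *Cxcr4* lies at -0.37 at 4 hr and -0.31 at 8 hr, and no difference passed the test after adjustment.

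Other chemoattractant receptors were also called in both directions. Of 32 named, 16 had a row and 12 were tested, of which 5 rose, 4 fell and 3 did not pass the test at 4 hr, and 5 rose and 5 fell at 8 hr, with a median log2 fold change of 0.24 and 0.19. Over all genes 29.1% rose and 26.7% fell at 4 hr and 24.5% and 21.6% at 8 hr, so that with 12 genes these counts are not set apart from the background. At 4 hr *Gpr183*, an oxysterol receptor, fell most (-3.14, adjusted p = 2.53e-05 by limma), followed by the C5a receptor *C5ar2* (-2.23) and the sphingosine-1-phosphate receptor *S1pr1* (-1.29). This order is that of 4 hr only. *S1pr1* had 301 to 373 reads per library at 0 hr, 81 to 151 at 4 hr and 203 to 255 at 8 hr. *Ltb4r1* had 20 to 63 at 0 hr, 10 to 18 at 4 hr and 3 to 9 at 8 hr. *Ccr9*, the receptor for Ccl25, rose from 1 to 4 reads per library at 0 hr to 22 to 36 at 4 hr (adjusted p = 5.82e-06), and its fitted log2 fold change of 3.68 depends on the 0.5 read added to each count. *Cxcr6*, the Cxcl16 receptor (1.40, 3 to 19 reads), the chemerin receptor *Cmklr1* (1.22) and the C5a receptor *C5ar1* (0.70) rose as well. *Cmklr1* and *Ccrl2*, which both bind chemerin, were thus both higher at 4 hr, by 1.22 and 3.17 on the log2 scale. *C5ar1* and *C5ar2*, adjacent on chromosome 7, moved in opposite directions at 4 hr.

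**Figure D5:**
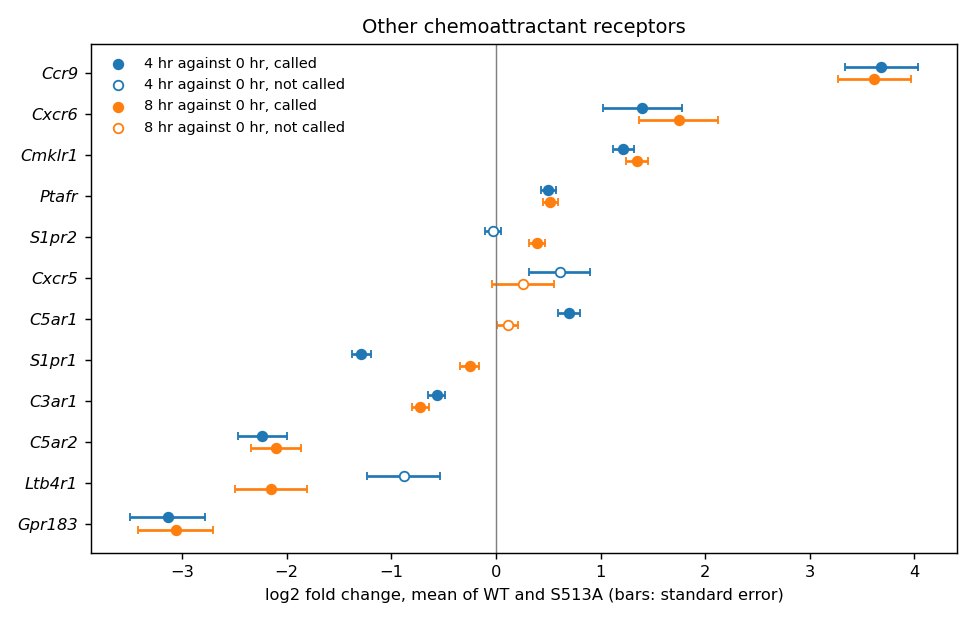
log2 fold change at 4 hr (blue) and 8 hr (orange) of LPS against 0 hr for the 12 tested chemoattractant receptor genes that are not among the 9, with the standard error as bars and open symbols where the adjusted p was not under 0.05. *Ccr9* (3.68 at 4 hr) is at the top and *Gpr183* (-3.14 at 4 hr) at the bottom.

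The receptor genes also lie together. Of the 8 receptors, 4 are on chromosome 9, and *Ccr1* and *Ccr2* belong to a row of 5 listed receptor genes within 435.1 kb (123678439 to 124113557, GRCm38). Along the chromosome *Ccr9* and *Cxcr6* come first and rose, and *Ccr1* and *Ccr2* follow and fell, with *Ccr3* between *Ccr1* and *Ccr2* at 0 to 8 reads and not tested. *Fpr1* and *Fpr2*, which both rose, are neighbors on chromosome 17.

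Ligands of the 9 receptors rose at 4 hr in 10 of 13 tested (21 named), and none fell, beside 29.1% and 26.7% of all genes. At 8 hr 10 were above 0 hr and 3, *Ccl6*, *Anxa1* and *Cxcl12*, below it, the last with 1 to 15 reads and an adjusted p of 0.0257. The median log2 fold change was 3.92 at 4 hr and 2.91 at 8 hr, and 2.60 and 2.83 with values under 3 reads set to that floor. *Ccl4* (6.46), *Ccl5* (5.72) and *Ccl3* (5.11), inflammatory chemokines, rose most at 4 hr, followed by *Adm*, the Ackr3-binding peptide, which went from 0 to 4 reads to 39 to 54. *Ccr1* transcripts were thus lower at 4 hr when those of its ligands *Ccl3* and *Ccl5* were higher, and the *Cxcr4* ligand *Cxcl12* did not pass the test at 4 hr (0.14, adjusted p = 0.765). *Ccl5* was the ligand called between genotypes in the reported fit. At 0 hr its log2 CPM was 4.17 and 3.84 in WT and 5.13 and 5.17 in S513A (1.14 higher, adjusted p = 0.0168 by limma). Over all times it was 0.53 higher (adjusted p = 0.0465 by limma). Under the alternatives 0 to 693 genes were called at 0 hr. No gene was called there with a pseudocount of 1, a prior without a trend or voom weights. The call of *Ccl5* at 0 hr was therefore lost in these fits, and in the other alternatives *Ccl5* was not followed. The paper reports that it found no gene with different expression between the genotypes, with or without LPS.

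Downstream of the receptors the counts stand beside 29.1% of all genes higher and 26.7% lower at 4 hr and 24.5% and 21.6% at 8 hr, and with lists of 7 to 19 genes nothing is read from them about a list. Here 5 of 8 G protein subunit genes rose and 2 fell at 4 hr (*Gng12* 0.70 higher, *Gng2* -0.64), and 4 rose and 2 fell at 8 hr, with medians of 0.39 and 0.24. All 7 tested receptor kinases and arrestins, which switch receptors off (9 names listed, 2 of them older symbols), changed at 4 hr, 3 higher and 4 lower, and 2 were higher and 4 lower at 8 hr (medians -0.53 and -0.43). β-arrestin 1 (*Arrb1*) fell (-1.36 at 4 hr, adjusted p = 1.03e-06) and β-arrestin 2 (*Arrb2*) rose (0.30, adjusted p = 0.00547). Of 7 tested RGS genes, whose proteins end G protein signaling, 1 rose and 4 fell at both times (medians -0.86 and -0.96). *Rgs18* (-2.19), *Rgs2* (-2.04), *Rgs1* (-1.15) and *Rgs10* (-0.86) fell at 4 hr, and *Rgs3* rose (0.52). Of 19 genes of the signaling that moves cells, 8 rose and 5 fell at 4 hr and 12 rose and 4 fell at 8 hr (medians 0.15 and 0.39). At 4 hr the kinase *Lyn* (1.20) rose, as did *Pik3r6* (1.22) and *Pik3cg* (1.21), which are among the subunits of PI3Kγ. In contrast, *Plcb2* (-1.64), *Rasgrp2* (-1.07) and the Rac activator *Dock2* (-0.80) fell.

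The genes whose log2 values followed each receptor most closely over the 12 libraries were named as a description. All 12 libraries share the LPS times, so high values of Pearson's r do not set these genes apart from others that respond. *Ccrl2* was most like *Gadd45b* (r = 0.997), *Tpm4* and *Tank*, and *Cxcr4* most like *Cd300a* (r = 0.996), *Aph1c* and *Rnf128*. *Fpr1* was most like *AA467197* (r = 0.995), *Ier3* and *Cav1*, and *Fpr2* most like *H2-M2* (r = 0.996), *Chordc1* and *Cxcl16*. For *Ccr1* the nearest were *Tex264* (r = 0.991), *Bnip3l* and *Lactb*, and for *Ccr7* *Hspa1b* (r = 0.985), *Siglece* and *F830208F22Rik*. The scarce *Cx3cr1* and *Ccr2* reached lower values, with *Arrb2* (r = 0.948), *Adck5* and *Fam114a1* nearest to *Cx3cr1* and *Pgm1* (r = 0.944), *Med22* and *Tppp3* nearest to *Ccr2*.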

How the data were processed

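RNA from 12 libraries of PECs (6 groups of 2, grouped by the genotype and LPS labels) was sequenced by the authors, who mapped the reads on mm10 with HISAT2 (paired-end, unstranded) and counted them with featureCounts 1.6.3. The strand setting of the counting and the annotation are not given in the sources used here. The deposited values are log2 CPM, the log2 of the reads plus 0.5 over an effective library size. Whole reads were recovered for 100% of values (tolerance 0.05 read, largest departure 0.00144). The floor of 3 reads is a log2 CPM of -2.04 to -1.30, and covers counting error only.

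Contrasts were tested with limma 3.58.1 (R 4.3.3) on the deposited log2 values: a mean per group, a prior following the mean, two-sided tests, Benjamini-Hochberg adjustment over 11885 genes and a threshold of 0.05. The fit was tested on simulated data. The members and lists were chosen with earlier results of these data known. Some listed genes are not reported here and stay out of the list counts. Named genes are the members, from each other list at most 4 per direction with the largest change among those called at 4 or 8 hr plus those called between genotypes, and the 3 genes most like each member. *Ccr3* and some of the genes that share sequence with a member were named for their position or sequence. Markers such as *Lyz2* and *Ly6c2* were named for their part in a sum, and *Ltb4r1* for its reads at 8 hr. Positions and lengths were taken from GENCODE (GRCm38), and upstream bases from RefSeq (GRCm38.p6), in which *Ccr7* was not matched. Python 3.11.15, pandas 2.3.3 and matplotlib 3.10.9 were used for tables and plots. Alternatives were other filters, scalings, pseudocounts, priors, weights, blocks and transcript lengths, and each library left out.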

Additional observations from a re-analysis of the deposited data

How the results depend on the processing

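The LPS responses of the 8 receptors at 4, 8 and between 4 and 8 hr were computed again under 11 alternatives and without each of the 12 libraries. Of 543 such values, 524 kept their side of the threshold, 19 lost the call and no called change reversed its direction. The uncalled log2 difference of *Ccr2* between 4 and 8 hr, -0.49, rose to 0.006 in a fit that left out 1 library. The lost calls were those of *Ccr2* at 4 hr and of *Ccr7*, *Cx3cr1* and *Fpr2* between 4 and 8 hr. Under the stricter filter, which asked for an average of 5 CPM or more, *Ccr2*, *Ccr7* and *Cx3cr1* were not tested, so that 5 receptors were called at 4 hr, 5 at 8 hr, 3 between 4 and 8 hr and 5 in WT at 8 hr. With 1 library left out, 3 to 5 receptors were called between 4 and 8 hr, 3 of them without either WT library at 8 hr. The fit of only the libraries compared called 2 receptors between genotypes at 0 hr, and no other alternative called any. The cause was not tested. *Fpr2* between 4 and 8 hr also lost its call with a prior without a trend (adjusted p = 0.0792) and with only the libraries compared (0.0794). The largest move of the median of all genes in these 3 contrasts was 0.08 on the log2 scale, with quantile normalization at 4 hr.

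To see whether same-numbered libraries go together, the difference between replicate 1 and replicate 2 of each group was correlated between groups. The r of these differences was over 0.1 in 6 of 15 pairs of groups (from -0.75 to 0.76 over 8353 genes). The highest r was between S513A at 4 and 8 hr, and the lowest between WT at 4 hr and S513A at 8 hr. The numbers were not taken to pair libraries, which the reported fit treats as independent. With the replicate block all 8 receptors kept their calls after 4 hr and after 8 hr, while that of *Fpr2* between 4 and 8 hr was lost (adjusted p = 0.0587) and *Ccr2* was called in WT at 4 hr (0.0412) and in S513A at 8 hr (0.0324).

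Over all genes, 3043 were called between 4 and 8 hr, but 2021 without replicate 1 of WT at 8 hr. In WT at 8 hr 4079 were called, but 2659 without replicate 1 of WT at 0 hr and 2489 without replicate 2 of WT at 8 hr, and in S513A at 8 hr 4744, but 2994 and 3152 without replicate 1 or 2 at 0 hr. Between genotypes the counts ranged over the alternatives from 0 to 693 at 0 hr (4 in the reported fit), 0 to 2 at 4 hr (2), 0 to 6 at 8 hr (4) and 3 to 12 over all times (8), and the interaction at 8 hr from 0 to 651 (0). The order of levels per length was the same with the union of exons and changed with the shortest transcript, which put *Ccrl2* first at 0 and 4 hr and *Ccrl2*, *Cxcr4* and *Fpr2* above *Ccr1* at 0 hr.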
